A study of Mus musculus with 18 samples.

Results

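Dendritic cells (DCs) that carried the label of epithelial cells, here called loaded, were compared with loaded CD11b CD64 macrophages in the small intestine of the mouse. Members were the arrays titled as GFP-plus CD103 cells, 3 in number, and those titled as GFP-plus CD11b CD64 cells, also 3, which makes 6 of the 18 arrays of the series. The mice were of the VDTR strain, whose villin promoter drives a fusion of the diphtheria toxin receptor and green fluorescent protein (GFP) in gut epithelium. Males and females were used, and an age was not given. Every mouse, those behind the GFP-minus arrays included, received diphtheria toxin intraperitoneally in PBS at 2 ng per kg and was killed after 4 hours, so no comparison with animals spared the toxin is made here. Loaded DCs were live CD45+ CD11c+ MHCII+ CD103+ CD24+ GFP+ cells, and loaded macrophages were live CD45+ CD11c+ MHCII+ CD11b+ CD64+ GFP+ cells. The GFP-minus cells of the same gates, 3 arrays each, are called unloaded and serve below as a second pair that shares no array with the loaded one. GFP in a sorted phagocyte shows that the cell carried the epithelial label, and says nothing on whether the label was inside it or on its surface. Nothing in the labels ties the replicates to separate animals, so the p-values speak of the spread among these arrays alone, which may be technical.

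Phagocytes of the lamina propria clear epithelial cells that die and are shed at the villus. Macrophages depend on the CSF1 receptor, stay in the tissue and degrade what they ingest in lysosomes. CD103 DCs depend on FLT3, cut ingested proteins into peptides for T cells, and can carry them through lymph vessels to the mesenteric lymph node after a maturation step that switches on CCR7 and the actin-bundling protein fascin. CD103 DCs that lack CD11b belong to the type 1 lineage (cDC1), which is known for cross-presentation of dead-cell antigen on MHC class I.

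Each value below is a log2 signal relative to the median of that probe over all 18 arrays. Because 12 of the 18 arrays are of macrophages, a value near 0 is close to a typical macrophage level, and absolute signal is unknown. Differences are log2 (loaded DC minus loaded macrophage), given with the standard error (SE) of a limma fit over all 18 arrays, and p-values are adjusted over 22180 genes with a threshold of 0.05. In bulk samples fewer cells of a type and less RNA per cell cannot be told apart. The loaded DC arrays had interquartile ranges of 0.394 to 0.578 and estimated array weights of 0.414 to 0.664, against 0.256 to 0.273 and 1.53 to 2.52 in the loaded macrophage arrays. Arrays correlated over genes at r = 0.525 to 0.57 among loaded DCs, at 0.378 to 0.564 among loaded macrophages, and at -0.362 to -0.248 between the groups. These correlations are of centred values. A negative r therefore means opposite deviations from the probe medians, and does not mean that the expression profiles themselves were opposed.

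The genes behind the sort followed their gates where the gates differed. Itgae, which encodes CD103, had values of 4.93, 5.30 and 5.46 in loaded DCs, against -0.32, -0.44 and -0.29 in loaded macrophages, a difference of 5.58 ± 0.65 (adjusted p = 5.36e-05). Cd24a was higher in loaded DCs by 5.31 ± 0.58 (adjusted p = 2.71e-05). Itgam, the gene for CD11b, had values of -4.82, -4.65 and -4.71 in loaded DCs, against 0.31, -0.03 and 0.10 in loaded macrophages, and fell by 4.85 ± 0.24 (adjusted p = 6.48e-09). Fcgr1, the gene for CD64, fell by 4.78 ± 0.32 (adjusted p = 1.59e-07). For each of these 4 genes all DC arrays lay on one side of all macrophage arrays, as for 30.7% of all genes. The 3 genes common to both gates did not pass: Itgax (CD11c) differed by -0.54 ± 0.32, Ptprc (CD45) by -0.49 ± 0.30 and H2-Ab1 (an MHC class II chain) by 0.01 ± 0.09, with adjusted p-values of 0.349, 0.378 and 0.953. The sign of the H2-Ab1 difference turned to -0.01 without macrophage replicate 1.

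Loaded DCs and loaded macrophages differed at 2096 genes, 9.45% of the 22180 tested. More genes were lower than higher in loaded DCs: 1661 fell (7.49%) and 435 rose (1.96%). With a difference of at least 2-fold as well, 1737 genes passed (7.83%), of which 1513 fell (6.82%) and 224 rose (1.01%). Irrespective of any p-value, the 6 arrays did not overlap between groups at 6808 genes (30.7%), of which 4281 were lower (19.3%) and 2527 higher (11.4%). The split depended on the scaling. The mean over all genes was -0.25, -0.07 and -0.16 on the loaded DC arrays, against 0.10, 0.07 and 0.10 on the loaded macrophage arrays. Quantile normalization moved the median difference of all genes to 0.08 (as deposited -0.03) and gave 871 lower and 676 higher. It was run here and below on the centred values, not on signal, and forces arrays of unlike spread onto the same distribution. Leaving out macrophage replicate 1 left 1229 calls and leaving out replicate 3 left 1284; genes lower numbered 1107 without DC replicate 1, and genes higher numbered 221, 227 and 231 without macrophage replicates 1, 2 and 3.

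**Figure D1:**
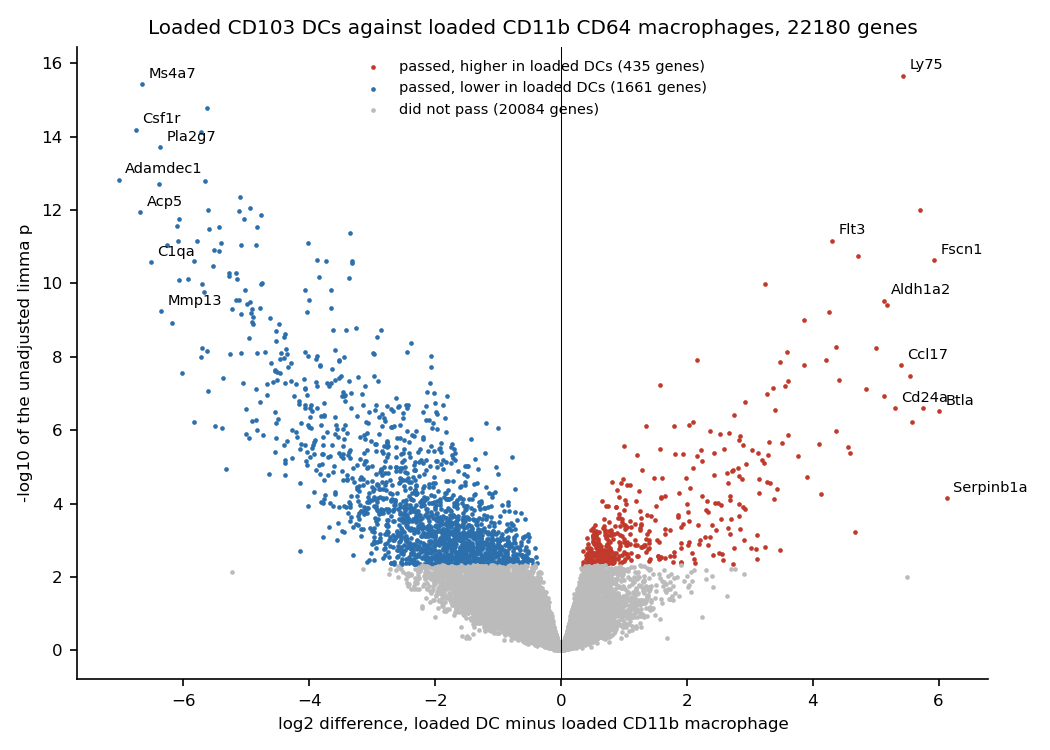
Each point is a gene, with the log2 difference (loaded DC minus loaded CD11b macrophage, 3 arrays each) on the x axis and -log10 of the unadjusted limma p on the y axis; red points passed and were higher in loaded DCs (435), blue points passed and were lower (1661), and grey points did not pass. Falls such as Csf1r and Ms4a7 extend past -6, while the rises include Btla and Serpinb1a just past 6.

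The 15 largest rises, with the sort genes Itgae and Cd24a among them, were Serpinb1a, Btla, Fscn1, Glipr2, Gpr33, Itgae, Actn1, Ly75, Ccl17, Cd24a, Lsp1, Aldh1a2, Serpinb6b, Net1 and Lif, with differences of 6.13 down to 4.84. Btla, an inhibitory receptor of the immunoglobulin family, had values of 4.89, 6.16 and 6.27 in loaded DCs, against -0.33, -0.12 and -0.25 in loaded macrophages (difference 6.01 ± 0.66, adjusted p = 3.10e-05). Ly75, which encodes the endocytic receptor DEC-205, stood at 5.30, 5.50 and 5.42 in loaded DCs, against 0.02, -0.16 and 0.04 in loaded macrophages (difference 5.44 ± 0.13, adjusted p = 4.08e-12). The 3 DC arrays were tight for Ly75 and wide for Serpinb1a, an intracellular inhibitor of serine proteases, at 6.54, 5.99 and 4.67 in loaded DCs, against -0.26, -0.40 and -0.55 in loaded macrophages (6.13 ± 1.11, adjusted p = 0.00257). Aldh1a2, the enzyme that makes retinoic acid from retinal, had values of 4.45, 5.34 and 4.19 in loaded DCs, against -0.34, -0.52 and -0.57 in loaded macrophages, a difference of 5.14 ± 0.33 (adjusted p = 1.05e-07). Lif, a cytokine of the interleukin 6 family, rose by 4.84 ± 0.48 (adjusted p = 1.01e-05).

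The 15 largest falls were Adamdec1, Csf1r, Acp5, Ms4a7, C1qa, Mmp9, Pla2g7, Mmp13, Cx3cr1, Ecm1, C3ar1, Cybb, Gbp2b, Thbs1 and C1qc, with differences of -7.03 to -6.03. Adamdec1, a secreted metalloproteinase of gut macrophages, had values of -5.66, -5.53 and -5.38 in loaded DCs, against 1.35, 1.61 and 1.55 in loaded macrophages (difference -7.03 ± 0.26, adjusted p = 4.59e-10). Csf1r, the receptor for CSF1, had values of -6.25, -5.87 and -6.09 in loaded DCs, against 0.70, 0.63 and 0.74 in loaded macrophages (difference -6.76 ± 0.20, adjusted p = 3.40e-11). Ms4a7, a 4-pass membrane protein of macrophages, stood at -6.30, -6.08 and -6.24 in loaded DCs, against 0.34, 0.54 and 0.45 in loaded macrophages (difference -6.65 ± 0.16, adjusted p = 4.08e-12). For all 30 genes the DC arrays lay apart from the macrophage arrays, as the rule that chose them required, and each kept its call in all 14 alternative settings in which single genes were refitted.

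**Figure D2:**
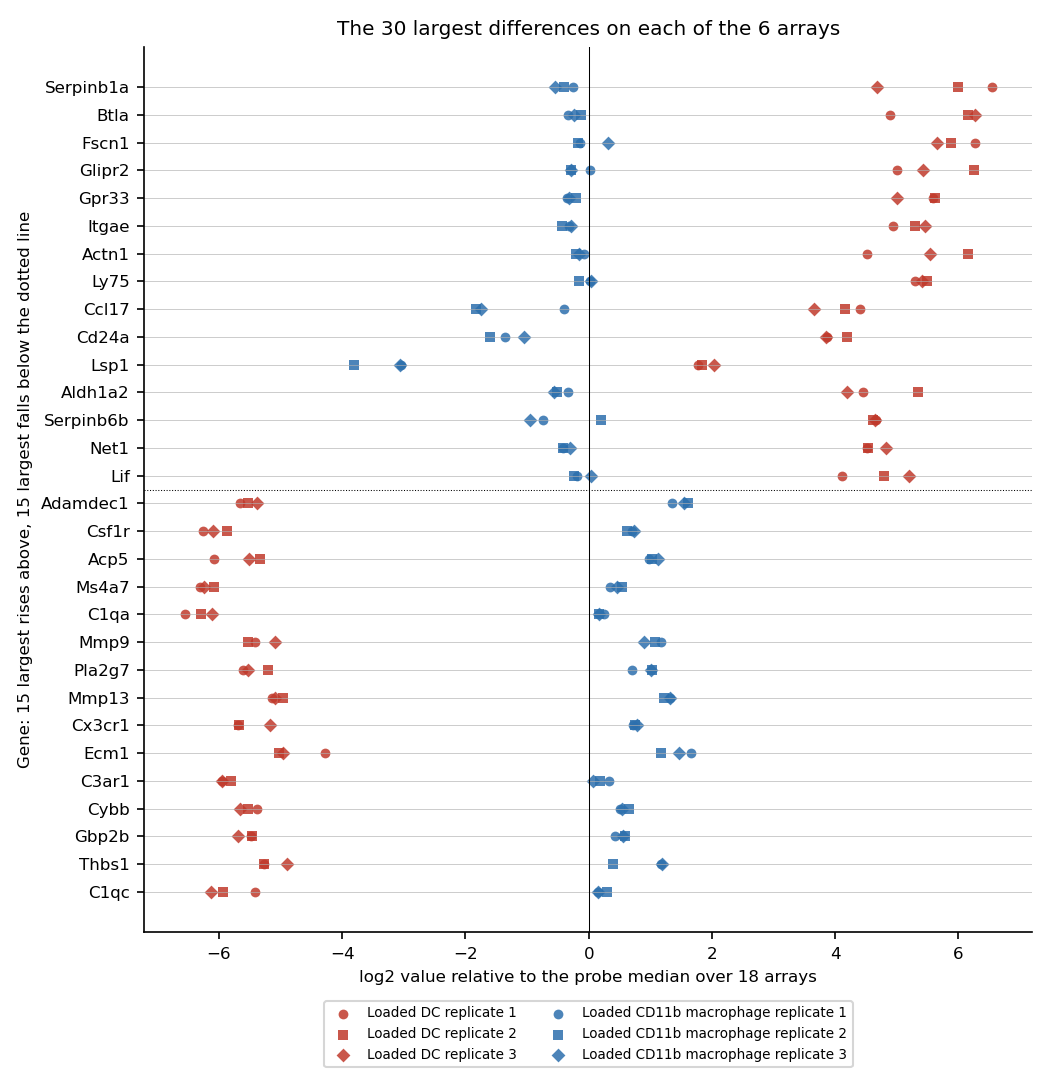
The log2 value relative to the probe median over 18 arrays (x axis) is shown for the 15 largest rises, above the dotted line, and the 15 largest falls, below it, with loaded DC arrays in red and loaded macrophage arrays in blue and a marker shape for each replicate. For the falls the macrophage arrays sit slightly above 0 and the DC arrays near -6 to -4, while Lsp1 is low in macrophages (-3.81 to -3.04) as well as high in DCs (1.77 to 2.04).

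Genes of the type 1 DC lineage were higher in loaded DCs. Of 20 measured genes of the cDC1 list, 12 rose, 1 fell and 7 did not pass, and the median difference was 1.74, beside -0.03 over all genes. The list holds Itgae and Cd24a, whose proteins defined the DC gate. Of the other 18, 10 rose and 1 fell, with a median of 1.10. Xcr1, the chemokine receptor that marks this lineage, had values of 3.90, 4.68 and 3.49 in loaded DCs, against -0.53, -0.10 and -0.39 in loaded macrophages (difference 4.36 ± 0.53, adjusted p = 8.26e-05). Irf8, the transcription factor the lineage requires, differed by less, at 1.17, 1.59 and 1.52 in loaded DCs, against 0.23, -0.03 and 0.02 in loaded macrophages (1.35 ± 0.16, adjusted p = 6.74e-05). Wdfy4, which cross-presentation of cell-bound antigen requires, rose by 3.38 ± 0.61, Naaa by 3.51 ± 0.46 and Gpr141b by 3.87 ± 0.27. The gene that fell was Tlr12, named after its value was seen. Batf3, another required factor and likewise named afterwards, differed by 0.54 ± 0.44 and did not pass.

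Of 14 measured genes of the list shared by conventional DCs, 4 rose, none fell and 10 did not pass, with a median of 1.49, and 7 passed when arrays were weighted. Flt3, the receptor of the growth factor that sustains DCs, had values of 3.86, 4.25 and 4.21 in loaded DCs, against -0.13, -0.12 and -0.34 in loaded macrophages, a difference of 4.31 ± 0.21 (adjusted p = 6.09e-09). Kit differed by 2.11 ± 0.66 and did not pass (adjusted p = 0.0619), though it did in 5 of 14 alternative settings. Its DC arrays ran from 0.48 to 3.80, all above the macrophage arrays at -0.37 to -0.15. Zbtb46, a factor that marks conventional DCs and was named after its value was seen, differed by 0.96 ± 0.61 without passing. None of the 15 measured genes of the type 2 DC list rose and 5 fell, led by Sirpa (-5.41 ± 0.27) and Clec4a3 (-4.99 ± 0.33), which macrophages also express. Without DC replicate 1, or without macrophage replicate 1, 3 of the 5 passed. Clec10a, another of the 5, lost its call in 10 of 14 alternative settings, the omission of any single loaded array among them. Mgl2 lost its call in 4.

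Genes of mature, migrating DCs were higher in loaded DCs in part. Of 26 measured, 7 rose, none fell and 19 did not pass, with a median difference of 0.81, and 12 passed when the 4 arrays of lowest weight, DC replicate 1 among them, were left out. Fscn1, which encodes fascin, had values of 6.26, 5.88 and 5.65 in loaded DCs, against -0.14, -0.18 and 0.32 in loaded macrophages (difference 5.93 ± 0.32, adjusted p = 1.41e-08). Ccl17, a ligand of the chemokine receptor CCR4 on T cells, had values of 4.41, 4.15 and 3.65 in loaded DCs, against -0.41, -1.83 and -1.74 in loaded macrophages (difference 5.40 ± 0.47, adjusted p = 2.91e-06). Ccl22, the other ligand of CCR4, rose by 4.60 ± 0.64, Il12b, the p40 chain of interleukins 12 and 23, by 4.36 ± 0.35, and Traf1, an adaptor of TNF receptors, by 3.22 ± 0.47. The DC and macrophage arrays lay apart for each of the 5, as for 30.7% of all genes. The rule that named Fscn1 and Ccl17 required it. Ccr7, the receptor that guides DCs to the lymph node, had values of 0.42, 2.70 and 2.25 in loaded DCs, against -1.18, 0.81 and -2.55 in loaded macrophages. The groups overlapped for it, since macrophage replicate 2 lay above DC replicate 1, and the difference of 2.76 ± 0.86 did not pass (adjusted p = 0.0598). It passed in 7 of 14 alternative settings, with an adjusted p of 0.018 without macrophage replicate 2 and 0.248 without macrophage replicate 3. The list of costimulatory and checkpoint genes had 26 measured members, of which 2 rose (Btla and Cd200, the second not in a fit of the 6 arrays alone) and 4 fell, among them Vsir, which encodes the checkpoint ligand VISTA (-4.34 ± 0.38), and Lgals9 (-3.64 ± 0.33).

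Actin and migration genes were more often higher in loaded DCs than genes at large, and lower about as often. Of 27 measured, 8 were higher (29.6%, beside 1.96% of all genes) and 2 lower (7.41%, beside 7.49%), with a median of 0.06. Lsp1, an actin-binding protein of leukocytes, had values of 1.77, 1.85 and 2.04 in loaded DCs, against -3.04, -3.81 and -3.06 in loaded macrophages (difference 5.19 ± 0.34, adjusted p = 1.36e-07). Epb41l3, a membrane-skeleton linker, went the other way, at -0.32, -0.57 and -0.50 in loaded DCs, against 2.09, 3.54 and 2.46 in loaded macrophages (difference -3.16 ± 0.32, adjusted p = 1.33e-05). Myo1g, Tpm4 and Arpc2 rose by 1.95, 1.48 and 0.81.

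Most measured genes of antigen presentation did not pass, although the shares that did were above the 9.45% of all genes. Of 17 measured MHC class II genes 1 rose, 2 fell and 14 did not pass (17.6% called), with a median of -0.23, and 5 passed without the 4 arrays of lowest weight. H2-Ob, a chain of the peptide-loading regulator H2-O, had values of 1.15, 2.47 and 1.79 in loaded DCs, against -0.70, -1.07 and -0.89 in loaded macrophages, and rose by 2.69 ± 0.49 (adjusted p = 0.00278). The 2 that fell were Ctss, the protease that trims the invariant chain (-1.81 ± 0.19), and Marchf1, a ubiquitin ligase that turns over MHC class II (-1.22 ± 0.27). Marchf1 did not pass under quantile normalization or without DC replicate 1. Of 21 measured genes of MHC class I and cross-presentation 5 rose and 1 fell (28.6% called), with a median of 0.02, and the share that rose was 23.8%, beside 1.96% of all genes. The immunoproteasome subunit Psmb9 stood at 0.85, 0.87 and 0.92 in loaded DCs, against -0.04, -0.43 and -0.51 in loaded macrophages (difference 1.21 ± 0.17, adjusted p = 0.000284). The peptide transporter Tap1 rose by 1.25 ± 0.28, a call that was lost without macrophage replicate 3. Nlrc5, another of the 5, lost its call in 6 of 14 alternative settings, the omission of any single macrophage replicate among them. Wdfy4, also among the 5, is on the cDC1 list as well. The gene that fell was Cybb, the catalytic chain of the phagosomal NADPH oxidase, with values of -5.38, -5.53 and -5.65 in loaded DCs, against 0.51, 0.65 and 0.53 in loaded macrophages (-6.08 ± 0.30, adjusted p = 6.09e-09).

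Genes that define macrophages were lower in loaded DCs almost throughout. Of 28 measured core macrophage genes 24 fell and none rose, with a median of -3.78, and of 19 genes of resident intestinal macrophages 15 fell and none rose, with a median of -3.53. The mean of the core list was -3.15, -2.79 and -2.84 on the loaded DC arrays, against 0.44, 0.49 and 0.46 on the loaded macrophage arrays. Cx3cr1, the fractalkine receptor, had values of -5.70, -5.68 and -5.17 in loaded DCs, against 0.72, 0.75 and 0.78 in loaded macrophages (difference -6.26 ± 0.31, adjusted p = 6.48e-09). The differences were -5.43 ± 0.25 for Adgre1, the gene of a surface antigen widely used to mark macrophages, -5.10 ± 0.20 for the mannose receptor gene Mrc1, and -4.29 ± 0.41 for Il10, an anti-inflammatory cytokine of gut macrophages. Of 14 complement genes 8 fell and none rose, and of 11 Fc receptor genes 7 fell and none rose. Itgam and Itgax on the first list and Fcgr1 on the second and on the core list encode proteins of the sort gates. Without them 7 of 12 complement genes, 6 of 10 Fc receptor genes and 23 of 27 core genes fell. C1qa, a chain of the first complement component, had values of -6.55, -6.29 and -6.12 in loaded DCs, against 0.25, 0.17 and 0.16 in loaded macrophages (difference -6.51 ± 0.35, adjusted p = 1.43e-08). Fcer1g, the signalling chain shared by activating Fc receptors, varied most among DC arrays, at -6.63, -3.21 and -6.48 in loaded DCs, against 0.03, 0.15 and 0.00 in loaded macrophages (-5.50 ± 0.66, adjusted p = 6.68e-05).

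Receptors and bridging molecules for apoptotic cells were mostly lower in loaded DCs, in a comparison of cells that were all sorted for carrying epithelial label. Of 33 measured, 17 fell, 2 rose and 14 did not pass, with a median of -2.39. Msr1, a scavenger receptor, had values of -4.97, -4.49 and -4.65 in loaded DCs, against 0.87, 0.99 and 0.85 in loaded macrophages (difference -5.61 ± 0.24, adjusted p = 1.64e-09). Also lower were Thbs1, the bridging protein thrombospondin 1 (-6.06 ± 0.35), Itgb5, the integrin chain that pairs with alpha V (-5.05 ± 0.22), and Stab1, a receptor for phosphatidylserine (-4.07 ± 0.25). Cd93 fell by 4.02 ± 0.20. For each of these 5 genes the arrays of the groups lay apart, as for 30.7% of all genes. The rule that named Thbs1 required it.

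Lysosomal genes were lower as a group. Of 41 measured, 29 fell, 1 rose and 11 did not pass, with a median of -1.72, and the list mean was -1.62, -1.27 and -1.49 on the loaded DC arrays, against 0.47, 0.41 and 0.48 on the loaded macrophage arrays. Ctsd, the aspartic protease cathepsin D, had values of -5.07, -5.47 and -4.56 in loaded DCs, against 0.24, 0.08 and 0.09 in loaded macrophages (difference -5.17 ± 0.29, adjusted p = 2.67e-08). The difference was -5.16 ± 0.30 for Ctsl, a cysteine cathepsin, -4.62 ± 0.40 for Lgmn, the asparagine-specific protease legumain, and -2.06 ± 0.18 for Lamp2, a membrane protein of the organelle. Lipa, the acid lipase that frees cholesterol from ingested lipid, stood at -2.44, -2.16 and -3.48 in loaded DCs, against 0.47, 0.80 and 0.75 in loaded macrophages (-3.36 ± 0.32, adjusted p = 6.76e-06). The gene that rose was Ppt1 (named after its value was seen), a palmitoyl-thioesterase that is also on the cDC1 list, by 0.51 ± 0.15.

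Promoters of lysosomal genes are known to carry E-boxes, so the letters CACGTG were sought in RefSeq windows (GRCm38.p6) that span each gene's start and lie mostly upstream of it. The motif reads the same on both strands. It was present for 10 of the 25 lysosomal genes that fell and had a window, or 40.0%, for 11 of 34 measured lysosomal genes with a window (32.4%), and for 9.19% of the 16990 tested genes with a window. Among all genes that fell it was present for 14.3% of 1340, and among those that rose for 7.9% of 329. Base composition was not matched between these sets. The windows of the 4 lysosomal genes with the smallest p among those that fell and hold the motif in a single window are shown because they carry the letters that were counted, with each E-box in capitals. Ctsd lies at chr7:142387778-142388077 on the minus strand, Ctsl at chr13:64370471-64370770 on the minus strand, Gaa (acid alpha-glucosidase) at chr11:119267713-119268012 on the plus strand and Lamp1 (a lysosomal membrane protein) at chr8:13158911-13159210 on the plus strand, where 4 E-boxes lie between positions -61 and -15 from the start.
Ctsd: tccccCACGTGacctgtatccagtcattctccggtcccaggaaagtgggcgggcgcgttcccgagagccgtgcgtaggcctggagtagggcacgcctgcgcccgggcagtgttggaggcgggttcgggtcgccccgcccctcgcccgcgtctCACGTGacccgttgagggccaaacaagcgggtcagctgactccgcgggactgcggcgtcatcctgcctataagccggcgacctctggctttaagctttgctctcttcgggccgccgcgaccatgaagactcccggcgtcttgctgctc
Ctsl: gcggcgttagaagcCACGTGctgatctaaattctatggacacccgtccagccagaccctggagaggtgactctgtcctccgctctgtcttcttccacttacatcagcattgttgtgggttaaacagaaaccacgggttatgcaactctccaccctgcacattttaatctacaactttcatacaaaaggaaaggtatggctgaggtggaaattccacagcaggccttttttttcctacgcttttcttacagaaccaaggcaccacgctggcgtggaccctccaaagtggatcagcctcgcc
Gaa: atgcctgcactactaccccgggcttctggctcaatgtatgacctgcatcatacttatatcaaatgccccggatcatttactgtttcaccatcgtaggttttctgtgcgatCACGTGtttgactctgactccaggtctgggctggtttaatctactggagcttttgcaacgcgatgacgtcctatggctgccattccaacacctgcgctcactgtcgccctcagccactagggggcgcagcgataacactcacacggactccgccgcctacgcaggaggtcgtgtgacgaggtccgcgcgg
Lamp1: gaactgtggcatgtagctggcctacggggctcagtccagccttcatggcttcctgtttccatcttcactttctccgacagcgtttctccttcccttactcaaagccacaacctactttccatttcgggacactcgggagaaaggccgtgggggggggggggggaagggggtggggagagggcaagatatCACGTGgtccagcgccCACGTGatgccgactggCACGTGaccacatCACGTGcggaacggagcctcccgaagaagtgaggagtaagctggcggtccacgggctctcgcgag
Gaa differed by -2.24 ± 0.30 and Lamp1 by -1.49 ± 0.22, against -5.17 and -5.16 for Ctsd and Ctsl, and both were named after their values were seen. The composite element GGAANNGAA, which PU.1 and IRF factors bind, was sought on both strands and was present for 8.51% of genes that rose, 9.55% of genes that fell and 8.93% of all genes with a window. TGCTGAC, part of the Maf recognition element, was present for 4.26%, 5.0% and 4.99%. None of these motifs was tested.

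Lipid handling went the same way as the lysosome, with 14 of 20 genes lower, 1 higher and a median of -3.25. Apoe, a lipid carrier secreted by macrophages, had values of -3.46, -6.04 and -5.01 in loaded DCs, against 0.31, 0.22 and 0.23 in loaded macrophages (difference -5.09 ± 0.42, adjusted p = 1.66e-06). Abca1, the cholesterol exporter, differed by -4.38 ± 0.33, and Nr1h3, the sterol-sensing nuclear receptor LXR alpha, by -3.87 ± 0.33. Of 18 genes of cholesterol synthesis 5 fell and none rose, with a median of -1.19, but the count was 1 to 3 without DC replicate 1, DC replicate 3 or any of the 3 macrophage replicates. Dhcr7, Fdft1, Stard4 and Sc5d each lost the call under quantile normalization. Fdft1, Stard4 and Sc5d also lost it without the 4 arrays of lowest weight. Iron and heme genes fell in 7 of 15 cases and rose in none. Hmox1, which splits heme, had values of -5.91, -4.67 and -5.37 in loaded DCs, against 0.62, -0.04 and 0.33 in loaded macrophages (difference -5.62 ± 0.46, adjusted p = 1.56e-06). In the glutathione list 7 of 22 fell and 2 rose (5 passed in all without macrophage replicate 1 or 3), and Gclc, the catalytic chain of the first step of glutathione synthesis, rose with values of 3.83, 3.71 and 3.71 in loaded DCs, against 0.10, 0.21 and 0.73 in loaded macrophages (3.40 ± 0.37, adjusted p = 2.91e-05).

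**Figure D3:**
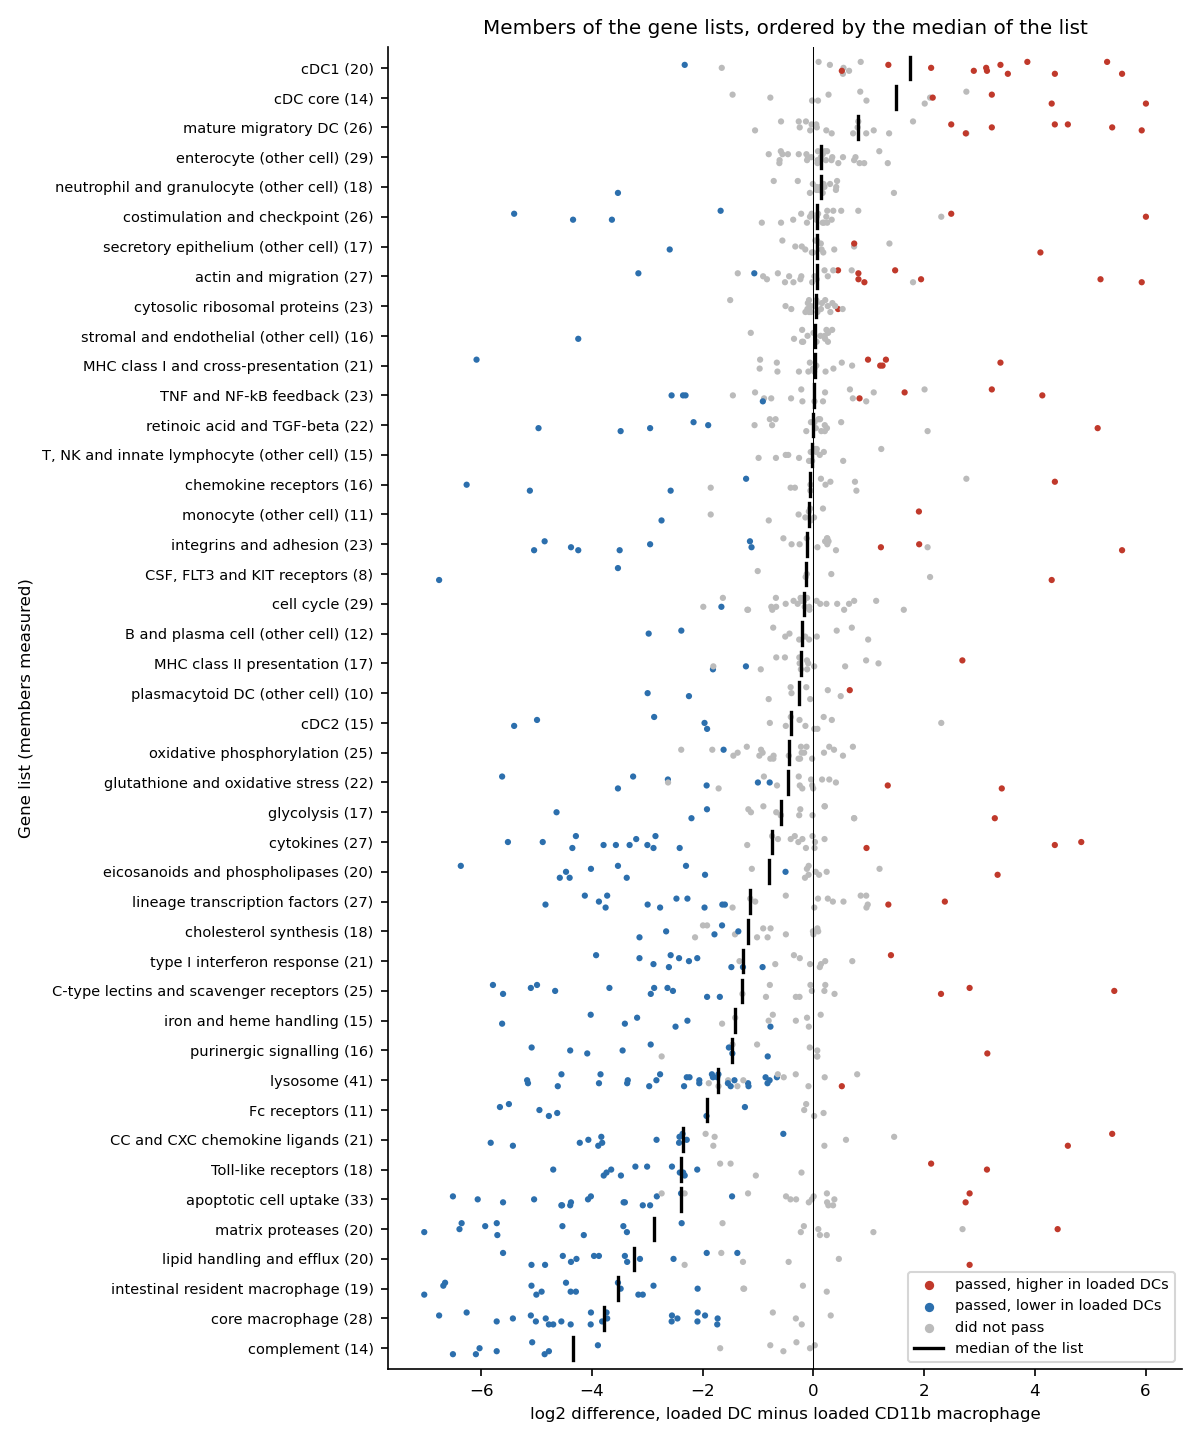
Each row is a gene list with the number of members measured, each point a member placed by its log2 difference (loaded DC minus loaded CD11b macrophage), and each black bar the median of the list; red members passed and were higher in loaded DCs, blue passed and were lower, grey did not pass. Complement (median -4.34) and the macrophage lists lie lowest, and the cDC1 list (1.74) and the shared DC list (1.49) highest.

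Chemokine ligands divided by kind. Of 21 measured, 13 fell and 2 rose, and the 2 that rose were Ccl17 and Ccl22. Pf4 (CXCL4) had values of -5.24, -5.21 and -5.14 in loaded DCs, against 0.19, 0.43 and 0.08 in loaded macrophages (difference -5.43 ± 0.28, adjusted p = 8.63e-09). Cxcl1, a neutrophil attractant, fell by 4.07 ± 0.40. Ccl7 and Ccl12, which attract monocytes, differed by -3.89 and -3.83 as deposited, and neither passed under quantile normalization. Among 16 chemokine receptors 4 fell, led by Cx3cr1 and Ccr1 (-5.12 ± 0.22), and 1 rose, Xcr1.

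Cytokine genes were lower in loaded DCs at 12 of 27 and higher at 3, which included Il12b and Lif. Il1a had values of -3.95, -3.56 and -3.52 in loaded DCs, against 0.96, 0.44 and 0.63 in loaded macrophages (difference -4.35 ± 0.36, adjusted p = 1.69e-06). Its antagonist Il1rn (-4.89 ± 0.34) and Il18bp, the antagonist of interleukin 18 (-5.52 ± 0.28), were lower too. Of 18 genes of Toll-like receptor signalling, 12 fell and 2 rose. Tlr3, the receptor for double-stranded RNA, was among those that rose, with values of 3.86, 3.16 and 2.69 in loaded DCs, against -0.17, -0.02 and 0.49 in loaded macrophages (3.14 ± 0.43, adjusted p = 0.00025). Tlr7 and Tlr8, the receptors for single-stranded RNA, differed by -3.74 ± 0.20 and -3.65 ± 0.35, and the co-receptor gene Cd14 by -4.70 ± 0.39. Tlr2 fell by 2.41 ± 0.33 as deposited, but under quantile normalization of the centred values its difference was 0.15 (adjusted p = 0.87). Interferon-stimulated genes fell at 11 of 21 and rose at 1, with a median of -1.27. The total that passed was 4 under quantile normalization and 7 without DC replicate 1 or DC replicate 3. Isg15 stood at -1.50, -1.66 and -3.47 in loaded DCs, against 0.80, 1.05 and 0.94 in loaded macrophages (-3.14 ± 0.52, adjusted p = 0.00126).

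Matrix proteases and enzymes of lipid mediators were mostly lower in loaded DCs. Of 20 matrix protease genes 11 fell and 1 rose. Mmp13, a collagenase, had values of -5.14, -4.97 and -5.09 in loaded DCs, against 1.32, 1.23 and 1.31 in loaded macrophages (difference -6.35 ± 0.43, adjusted p = 1.77e-07). Mmp9 differed by -6.39 ± 0.24 and Plau, the urokinase-type plasminogen activator, by -5.93 ± 0.34. Of 20 genes of eicosanoids and phospholipases 10 fell and 1 rose. Pla2g7, the lipoprotein-associated phospholipase, had values of -5.62, -5.21 and -5.54 in loaded DCs, against 0.70, 1.03 and 1.01 in loaded macrophages (-6.37 ± 0.20, adjusted p = 7.11e-11). Alox5ap, which presents arachidonate to 5-lipoxygenase, was the gene that rose, at 0.79, 0.82 and -1.20 in loaded DCs, against -3.17, -3.25 and -3.16 in loaded macrophages (3.33 ± 0.55, adjusted p = 0.00118). Of 16 purinergic genes 8 fell, led by P2ry13 (-5.09 ± 0.35), and P2ry10 rose by 3.14 ± 0.50. Among lineage transcription factors 12 of 27 fell, including Maf (-3.73 ± 0.46), Tfec (-4.13 ± 0.49) and Cebpb (-4.84 ± 0.59), and 2 rose, Irf8 among them.

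Shares called were below the 9.45% of all genes for oxidative phosphorylation (4.0%), the cell cycle (3.45%) and cytosolic ribosomal proteins (4.35%), and above it for glycolysis (23.5%). None of 25 genes of oxidative phosphorylation rose and 1 fell, Ndufv1, a call lost without DC replicate 1, DC replicate 3 or any macrophage replicate. The mean of that list was -0.82, -0.13 and -0.63 on the loaded DC arrays, against 0.12, 0.12 and -0.08 on the loaded macrophage arrays, so DC replicate 2 lay close to the macrophages and the other two below them. Without DC replicate 2, 5 members passed. Of 29 cell cycle genes none rose and 1, Nusap1, fell. That call was lost without DC replicate 1 or 3 and without macrophage replicate 1 or 2, while 3 passed without DC replicate 2 and 2 without macrophage replicate 3. Of 23 cytosolic ribosomal protein genes 1 passed, Rpl4 (0.45 ± 0.13), and no member passed without any 1 of the 6 arrays. In glycolysis 3 of 17 fell and 1 rose: Hk2 stood at -4.09, -2.38 and -3.17 in loaded DCs, against 1.70, 0.80 and 1.79 in loaded macrophages (-4.64 ± 0.72, adjusted p = 0.000711), and Pfkp rose by 3.28 ± 0.54. Hk3, which also fell, lost its call in 9 of 14 alternative settings, the omission of any single macrophage replicate among them. Slc2a1, the last that fell, lost its call in a fit of the 6 arrays alone.

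Among markers of other cells that the gates could hold, the share called was above the 9.45% of all genes for the plasmacytoid (30%), monocyte (18.2%), secretory epithelial (17.6%) and B and plasma cell (16.7%) lists. It was below that share for the stromal (6.25%), neutrophil (5.56%), enterocyte and T and NK lists. No member of the enterocyte list (29 measured) passed, and its mean was 0.37, 0.52 and 0.41 in loaded DCs, against 0.35, 0.41 and 0.09 in loaded macrophages. 1 passed without DC replicate 2 and 2 in a fit of the 6 arrays alone. Apoa1 had the smallest p, at 0.86, 0.21 and 0.59 in loaded DCs, against -0.30, -0.15 and -0.10 in loaded macrophages (0.74 ± 0.24, adjusted p = 0.0714). In the secretory list 2 of 17 rose and 1 fell. Defa24, a Paneth cell defensin whose near-identical family members may share its probe, had values of 4.39, 3.87 and 4.53 in loaded DCs, against 1.09, -0.23 and -0.36 in loaded macrophages (4.10 ± 0.54, adjusted p = 0.000165). Lyz1, the Paneth cell lysozyme, fell by 2.60 ± 0.50. Another lysozyme gene, Lyz2, is on the core macrophage list, and whether the Lyz1 probe also reads it was not tested. Chgb, the other secretory gene that rose, lost its call in 4 of 14 alternative settings. The T and NK list had no member that passed (15 measured, means of -0.33, -0.13 and -0.26 in loaded DCs, against -0.26, -0.17 and -0.13 in loaded macrophages), with 1 in a fit of the 6 arrays alone. Of 11 monocyte genes S100a4 fell and Plac8 rose, and 1 of the 2 was lost without DC replicate 2 or any macrophage replicate. Plac8 was also lost without DC replicate 1. The neutrophil list had 1 of 18 lower (Csf3r), the B and plasma cell list 2 of 12 lower (Cd79b and Sdc1), the plasmacytoid list 2 of 10 lower (Tcf4 and Bst2) and 1 higher (Ly6d), and the stromal list 1 of 16 lower (Pecam1). Cd79b and Bst2 did not pass under quantile normalization, and Ly6d was lost without DC replicate 1, DC replicate 3 or any macrophage replicate. Absolute signal is unknown, so whether a defining marker was at background cannot be read, and the part of these cells in the results was not tested.

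The unloaded pair, from the GFP-minus gates, showed how much of this difference was shared by cells without label. There 731 genes passed (3.3%), of which 309 were higher (1.39%) and 422 lower (1.9%) in unloaded DCs, and array weights raised the total to 1236. Of the genes called in the loaded pair 489 were called in the unloaded pair with the same sign, which is 23.3% of the loaded and 66.9% of the unloaded calls, and 9 were called with opposite signs. Whether called there or not, 1565 of the 2096 had the same sign in the unloaded pair (74.7%), beside 50.4% of all genes. Csf1r differed by -6.76 in the loaded and -5.65 in the unloaded pair, Flt3 by 4.31 and 4.04, and Xcr1 by 4.36 and 5.01. A count that is larger in one pair does not show that the pairs differ, and the difference was therefore tested directly.

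Whether the difference between DCs and macrophages itself differed between the gates was tested as the loaded minus the unloaded difference. It passed at 118 genes (0.532%), 18 with a higher value (0.0812%) and 100 with a lower one (0.451%). The count was 33 under quantile normalization, 438 with array weights, and ran from 41 without loaded macrophage replicate 3 to 401 without loaded DC replicate 2. Ms4a7 had the smallest p: the DC to macrophage difference was -6.65 in the loaded and -3.83 in the unloaded pair, which differ by -2.82 ± 0.23 (adjusted p = 0.000114). Its values in unloaded DCs were -4.04, -4.03 and -3.41, above the -6.30 to -6.08 of loaded DCs, and in unloaded macrophages -0.08, 0.12 and -0.04. Cybb, with -6.08 in the loaded and -3.09 in the unloaded pair, and Pla2g7, with -6.37 and -4.07, went the same way. Pla2g7 lost its call for the gap under quantile normalization (adjusted p = 0.143). Whether Cybb, or Ccl17, Fscn1 and Lsp1 below, kept the call for the gap in other settings was not recorded gene by gene.

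In the other direction, Ccl17 differed by 5.40 between loaded DCs and loaded macrophages and by 0.32 between unloaded ones, a gap of 5.08 ± 0.67 (adjusted p = 0.00447). Unloaded DCs stood at 0.22, 1.51 and 1.92 for it and unloaded macrophages at 0.82, 1.20 and 0.69, so the unloaded groups overlapped while loaded DCs lay above and loaded macrophages below both. Fscn1 had a gap of 3.11 ± 0.45 (adjusted p = 0.00719), with 3.15, 1.99 and 1.96 in unloaded DCs, against -0.55, -0.60 and -0.20 in unloaded macrophages. For Lsp1 the gap of 2.84 ± 0.48 (adjusted p = 0.0199) lay with the macrophages. Its values in unloaded DCs, 1.79, 1.58 and 1.84, were close to those of loaded DCs, while unloaded macrophages at 0.06, -0.46 and -1.43 stood above loaded ones at -3.81 to -3.04. Trit1, a transfer RNA modifier, changed sign: it was lower in loaded DCs (-2.45) and higher in unloaded DCs (1.21), a gap of -3.65 ± 0.38 (adjusted p = 0.000954).

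**Figure D4:**
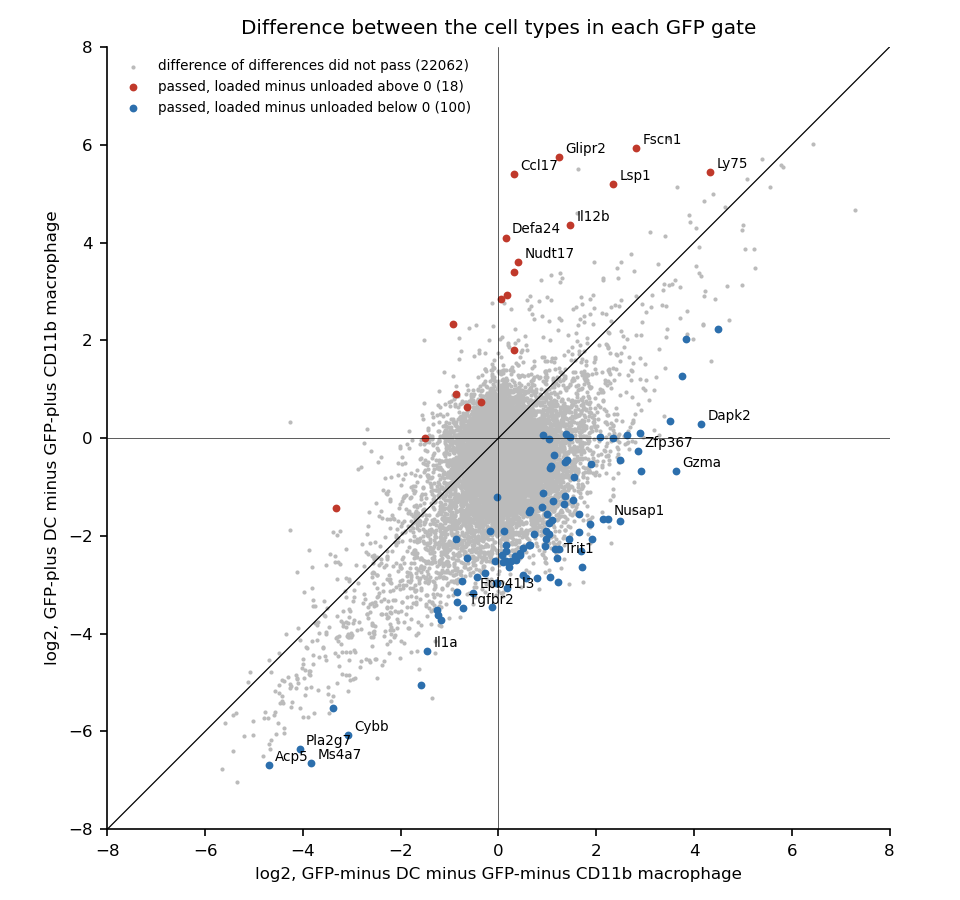
For each gene the log2 difference of GFP-minus DCs from GFP-minus CD11b macrophages (x axis) is set against that of GFP-plus DCs from GFP-plus CD11b macrophages (y axis), with the line of equal differences; coloured points are the 118 genes whose 2 differences differed (18 red above the line, 100 blue below it). Ccl17, Glipr2 and Fscn1 lie far above the line, and Ms4a7, Pla2g7 and Acp5 at the low end below it.

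**Figure D5:**
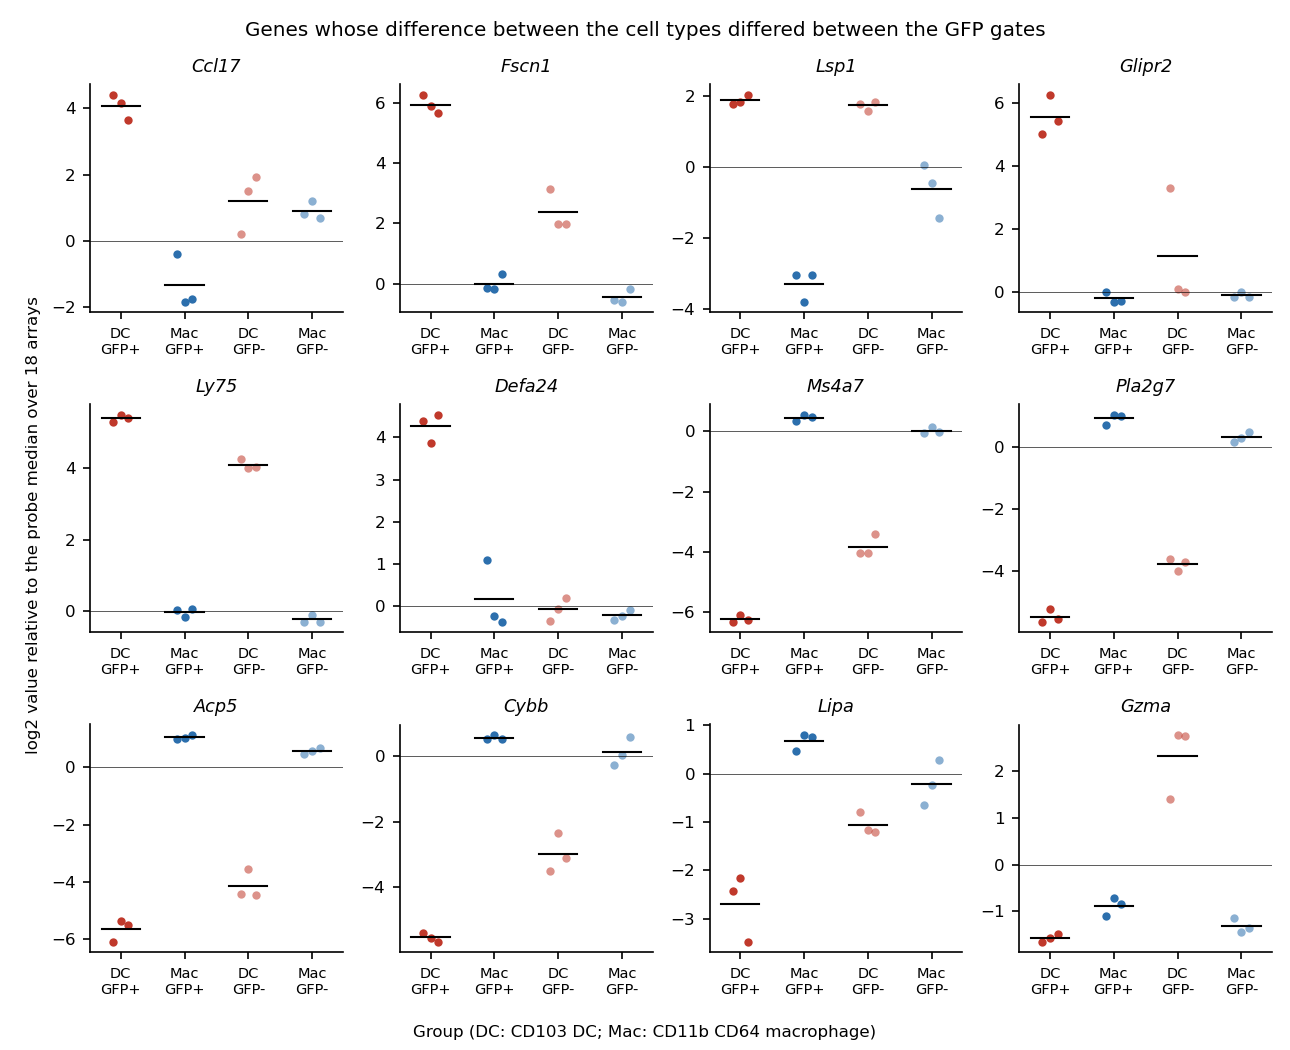
The log2 value relative to the probe median over 18 arrays (y axis, its range set for each gene) is shown for every array of the 4 groups (x axis: DC and macrophage, GFP-plus then GFP-minus), with a bar at the group mean, for 12 of the genes whose difference between the cell types differed between the gates. Fscn1 and Ly75 are high in DCs of both gates and higher in the GFP-plus ones, Defa24 is at 3.87 to 4.53 in GFP-plus DCs and at most at 1.09 in the other groups shown, and Gzma is above 0 in GFP-minus DCs (1.40 to 2.77) and below it in the others.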

How the data were processed

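RNA was amplified from 1 ng per sample with the NuGEN WT Ovation Pico kit, per the labels, and hybridised to Affymetrix mouse gene arrays. The authors deposited one table of 33793 probes in 18 columns, read here as log2 values. All 33793 probe medians lay within 1e-06 of 0, so each probe had been centred on its own median. The log base was inferred, since a probe spanned up to 10.148 units, more than log10 of a scanner's range allows, and a natural log could not be told apart from log2. The authors' software and normalization, and the meaning of the labels' "n value" of 4, are not stated in these sources.

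Probes with 1 gene symbol (23521) were averaged per gene, and those with several (1814) or none (8458) were left out. limma 3.58.1 (R 4.3.3) fitted 6 group means to the 18 arrays (12 residual and 2.089 prior degrees of freedom), with two-sided p-values adjusted by Benjamini-Hochberg over 22180 genes. The number of arrays limits the precision, estimated array weights ran from 0.352 to 2.52, and signal over background is unknown. The fit was checked on simulated data. Settings varied were quantile normalization, array weights, a replicate block, the most variable probe, a filter on spread and smaller sets of arrays. Quantile normalization was run on the centred values, since signal was unknown, and gave arrays of unlike spread the same distribution. Whether that rescaling alone turned signs or lost calls was not tested. Each replicate of the loaded and unloaded pairs was also left out in turn, while CD103 CD11b CD64 macrophage arrays were not left out singly. A test against a log2 change of 1 was run for the counts of the loaded pair alone.

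Named are the 15 largest rises and falls whose arrays do not overlap, the 7 sort genes, up to 6 members of each gene list by p, and the 10 smallest p-values for the difference between gates. The groups and lists were chosen with earlier results of these data known.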

Additional observations from a re-analysis of the deposited data

Results flagged for a closer look

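The genes below were singled out because the difference between DCs and CD11b macrophages was not the same in the loaded and in the unloaded pair, by a limma test of that gap itself (loaded minus unloaded difference, log2 ± SE, 3 arrays per group, adjusted over 22180 genes). They are the 26 genes of the naming rule among the 118 that passed, 9 with a gap above 0 and 17 below. In other settings the gap was refitted for all genes, but gene by gene it was recorded only for those with the smallest p. These were Ms4a7, Gm3336, Trit1, Zfp367, Acadsb, Drg2, Haspin, Pla2g7, Dapk2 and Nudt17. Whether the other genes named below kept the call for the gap in other settings was not recorded.

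Above 0, the DC to macrophage difference of Ccl17 was 5.40 in the loaded and 0.32 in the unloaded pair, a gap of 5.08 ± 0.67 (adjusted p = 0.00447). For Glipr2 the gap was 4.52 ± 0.89 (adjusted p = 0.0402), and unloaded DC replicate 1, at 3.30, stood apart from the other unloaded DCs at 0.11 and 0.00. Defa24, a Paneth cell defensin, differed by 4.10 in the loaded and 0.14 in the unloaded pair, a gap of 3.96 ± 0.76 (adjusted p = 0.0366). Nudt17 had a gap of 3.20 ± 0.42, Fscn1 of 3.11 ± 0.45, Gclc of 3.09 ± 0.53, Il12b of 2.90 ± 0.50, Lsp1 of 2.84 ± 0.48 and Ly75 of 1.11 ± 0.18 (adjusted p = 0.00447, 0.00719, 0.0199, 0.0199, 0.0199 and 0.0136). For these 9 genes every loaded DC array lay above every loaded macrophage array, as for 11.4% of all genes. The rule that named Ccl17, Glipr2, Fscn1, Lsp1 and Ly75 required it.

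Below 0 and lower in DCs of both pairs were Ms4a7 (-2.82 ± 0.23), Cybb (-3.00 ± 0.42), Pla2g7 (-2.30 ± 0.29), Acp5 (-1.98 ± 0.40), Il1a (-2.89 ± 0.51), Lipa (-2.51 ± 0.45), Tgfbr2 (-2.75 ± 0.50) and Epb41l3 (-2.64 ± 0.45), with adjusted p-values of 0.000114 to 0.0461. For Lipa, Tgfbr2 and Epb41l3 the unloaded difference (-0.85, -0.73 and -0.52) did not pass on its own. For Epb41l3 the gap lay with the macrophages, at 2.09 to 3.54 when loaded and 0.03 to 0.49 when unloaded, while DCs of both gates lay between -0.57 and -0.25.

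Lower in loaded DCs and not lower in unloaded DCs than in the macrophages of the same gate were Trit1 (-3.65 ± 0.38), Nusap1 (-3.90 ± 0.59), Drg2 (-2.82 ± 0.34) and Acadsb (-2.70 ± 0.31), with adjusted p-values of 0.000954, 0.01, 0.00302 and 0.00237. A last group was higher in unloaded DCs and did not pass in the loaded pair, and comprised Gzma (-4.30 ± 0.66), Dapk2 (-3.86 ± 0.50), Haspin (-3.17 ± 0.39), Zfp367 (-3.12 ± 0.36) and Gm3336 (-2.07 ± 0.19), with adjusted p-values of 0.0123, 0.00447, 0.00302, 0.00237 and 0.000374. Gzma, a granule protease of cytotoxic lymphocytes, had values of 1.40, 2.77 and 2.75 in unloaded DCs, against -1.15, -1.44 and -1.35 in unloaded macrophages. The GFP-minus CD103 CD11b CD64 macrophages of the series, which belong to neither pair, were higher still, at 2.88, 3.36 and 4.49. Gzma itself belongs to the T and NK marker list, and the other 14 measured members of that list did not pass in the unloaded pair. The part of such cells in this result was not tested.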

How the results depend on the processing

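The loaded pair kept more genes lower than higher under every setting run, between 1008 and 1892 lower and 221 and 553 higher with a replicate left out (1229 to 2445 in all). Its count was 503 (78 higher, 425 lower) when tested against a log2 change of 1, and quantile normalization gave 676 higher and 871 lower. The unloaded pair gave 583 to 802 calls with a replicate left out (202 to 373 higher, 338 to 429 lower) and 1236 with array weights (595 higher, 641 lower). The gap between the pairs was the least stable result, at 41 to 401 calls with a replicate left out (7 to 69 higher, 33 to 344 lower), 33 under quantile normalization (17 lower), 438 with array weights (59 higher, 379 lower), and 3440 genes had an unadjusted p under 0.05. Without loaded DC replicates 1 and 2 in turn it passed at 73 and 401 genes, without loaded macrophage replicates 1 to 3 at 46, 47 and 41, without unloaded DC replicates 1 to 3 at 224, 60 and 73, and without unloaded macrophage replicates 1 to 3 at 71, 57 and 354. The cause of these changes was not tested.

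Same-numbered replicates of the loaded groups deviated together at r = -0.0215, -0.08 and 0.0096. Same-numbered arrays of other pairs of groups ran from -0.172 to 0.337, and differently numbered arrays were not compared. Whether the numbers pair animals or days therefore cannot be read from these values. With a replicate block the loaded pair passed at 2216 genes and the gap at 196 (171 lower). Of the 175 named genes called in the loaded pair, 138 kept the call in all 14 settings in which single genes were refitted. The test against a log2 change of 1 was not among these. Signs turned for genes that had not passed: H2-Ab1 (-0.0137 without loaded macrophage replicate 1, up to 0.0499 with another left out) and Lum (-0.0265 without loaded DC replicate 2, up to 0.6282), and under quantile normalization of the centred values Ly6c2 (0.36), Gzma (1.28), Gzmb (0.34) and Cd3g (0.43). As deposited, every loaded DC array lay below every loaded macrophage array for Gzma (-1.65 to -1.49 against -1.11 to -0.72), as for 19.3% of all genes. Of called genes only Tlr2 turned, to 0.15 under quantile normalization. The setting without the 4 arrays of lowest weight was added after the weights were seen. Centred values hide which genes were near background, where fold changes are understated.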
